A study of Mus musculus with 6 samples.

Results

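The AP-1, EGR and immediate early factors examined here were the 10 genes Jun, Junb, Jund, Fos, Fosb, Egr1, Egr2, Ier2, Ier3 and Atf3, chosen by gene symbol in the annotation of the array. They were measured by 12 probe sets of 22690 on the array, which carries 12393 genes under a single symbol. Mouse multiple myeloma cells, labelled as malignant plasma cells from bone marrow, spent 12 h without serum, either with no addition (control, 3 arrays) or with IGF-1, an insulin-like survival and growth factor, at 100 ng/ml (3 arrays). The labels give no mouse strain, age or line for these cells. Nor do they say whether the arrays of a group came from separate cultures. The p-values thus weigh the difference between groups against a spread between arrays of a group that may be only technical. The comparison asks which transcripts of these factors differed in level after IGF-1.

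Immediate early genes are switched on within minutes of a growth factor, serum or stress signal from proteins the cell already holds, and their transcripts usually decay again within hours. JUN, JUNB and JUND pair with FOS, FOSB or ATF proteins through a leucine zipper, and the dimer, called AP-1, binds DNA. EGR proteins bind GC-rich sites through zinc fingers. In plasma cell tumours and other cells, the ERK and JNK kinase cascades that IGF-1 and stress act on reach these genes through SRF, ELK and JUN itself.

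Promoter windows of RefSeq (build GRCm38.p6, from 250 bases before to 50 after each annotated start) were matched by symbol to 8 of the 10 genes, not to Egr1 or Ier2. Jun and Junb are shown because their measured differences pointed in opposite directions, and a short stretch of Fos and of Atf3 because each holds a cyclic AMP response element-like site close to the start. Capitals mark TTACCTCA and TGACATCA in Jun, TGACG in Junb and Fos, and TTACGTCA in Atf3.
Jun, chr4:95052173-95052472, minus strand: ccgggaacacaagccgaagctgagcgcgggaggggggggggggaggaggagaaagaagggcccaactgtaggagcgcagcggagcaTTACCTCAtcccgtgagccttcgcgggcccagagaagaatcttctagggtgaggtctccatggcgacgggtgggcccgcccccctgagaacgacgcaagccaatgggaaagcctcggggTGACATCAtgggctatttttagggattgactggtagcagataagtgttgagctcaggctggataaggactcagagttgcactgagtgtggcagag
Junb, chr8:84978699-84978998, minus strand: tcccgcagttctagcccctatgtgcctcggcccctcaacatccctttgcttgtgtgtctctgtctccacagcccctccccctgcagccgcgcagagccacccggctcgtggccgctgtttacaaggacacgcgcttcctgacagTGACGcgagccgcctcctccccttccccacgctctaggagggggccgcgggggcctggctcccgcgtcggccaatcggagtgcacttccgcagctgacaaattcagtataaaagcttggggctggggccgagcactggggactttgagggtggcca
Fos, chr12:85473808-85473844, plus strand: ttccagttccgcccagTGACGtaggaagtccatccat
Atf3, chr1:191183324-191183355, minus strand: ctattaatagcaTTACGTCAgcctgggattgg

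In the human JUN promoter, variant AP-1 sites of the letters TGACATCA and TTACCTCA are bound by JUN and ATF2. In the mouse Jun window, TGACATCA lay at -45 to -38 and TTACCTCA at -164 to -157 from the annotated start, each found in 1 of the 8 genes. Over both strands of all 32851 windows of the same length, 3.62% held TGACATCA and 0.889% held TTACCTCA. The letters TGACG lay in windows of 5 of the 8 genes (Atf3, Fosb, Junb, Egr2 and Fos), against 20.8% of all windows. A gene counts here if any of its windows matches, and the 8 genes have 12 windows, 5 of them of Egr2. The share is per window, so the count and the share are unlike measures. In Atf3 the letters TGACG overlap TTACGTCA, which 0.499% of all windows held. The canonical AP-1 site TGANTCA (7.81% of all windows) and the full element TGACGTCA (1.79%) had no match in the member windows. The CArG box, the site bound by SRF, was in 4 of the 5 windows of Egr2 (1.63% of all windows). Those starting at 67537619, 67537620 and 67537680 overlap and hold the same site, CCATATATGG, while that at 67537316 holds CCTTTTTTGG. The 4 windows are thus not separate sites. The EGR motif GCGNGGGCG (5.55%) was in Fosb. A match of letters is a description of the window and shows no binding.

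Of the 12 probe sets, 8, covering 7 genes, had a mean signal above 53.61, the median of all probe sets, and were tested. The other 4, covering Fosb, Egr1 and Egr2, lay below it. Signals are linear MAS5 values scaled by the authors to a common mean per array, and differences are IGF-1 minus control of log2(signal + 15.57). Jun fell in 1 of its 2 probe sets, the 1 of the 8 member probe sets past an adjusted p of 0.05 in limma, and 0 rose. Over all 11313 probe sets tested 15.1% passed, 6.82% higher and 8.28% lower in IGF-1. The median difference of the 8 was -0.13, against -0.01 over all probe sets tested. By limma's unadjusted p, 2 of the 8 were under 0.05 (Jun and Junb).

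**Figure D1:**
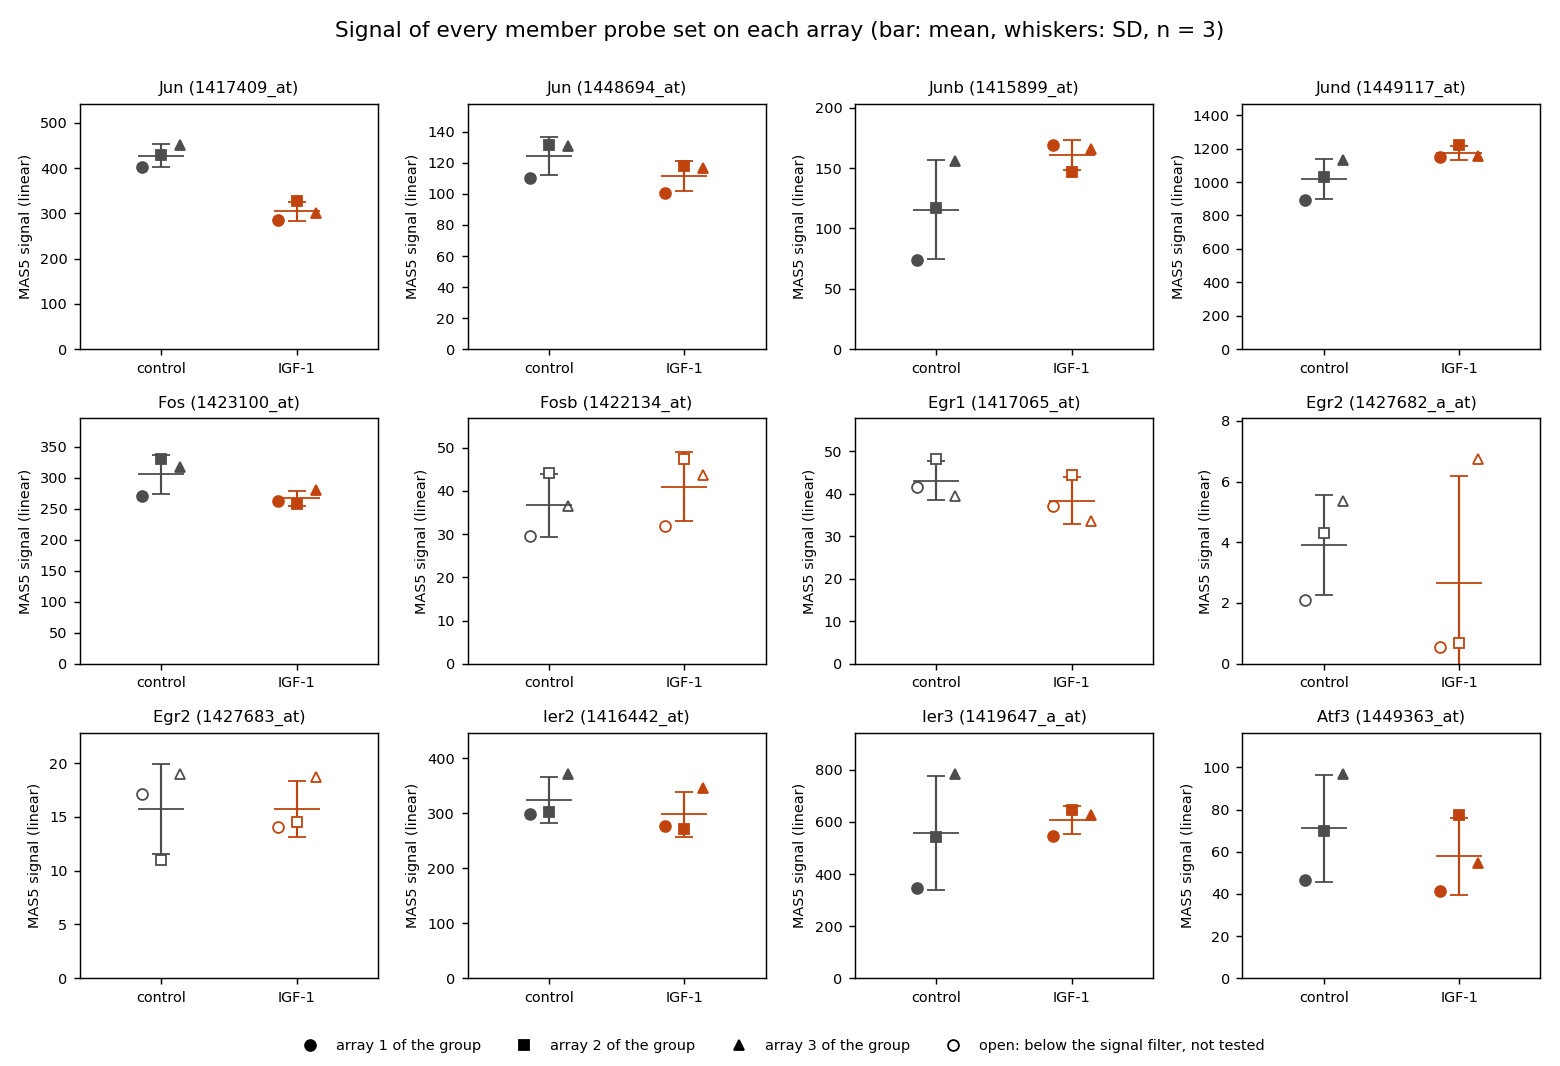
Linear MAS5 signal of each of the 12 member probe sets on the 3 control arrays (grey) and the 3 IGF-1 arrays (orange). Horizontal bars are means, whiskers SD (a whisker below 0 is not drawn), and open symbols mark the 4 probe sets below the signal filter. The groups are apart in Jun 1417409_at and, narrowly, in Jund, and control 1 is the lowest control array in each of the 8 tested panels.

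Jun encodes the founding AP-1 subunit. Its brighter probe set, 1417409_at, read 402.1, 429.3 and 451.9 on control arrays 1, 2 and 3 and 285.7, 326.2 and 300.4 on IGF-1 arrays 1, 2 and 3. Every IGF-1 array lay below every control array, as in 18.7% of all probe sets tested. The mean went from 428 ± 24.9 to 304 ± 20.5 (SD, n = 3), a log2 difference of -0.47 ± 0.10 (SE, 95% interval -0.69 to -0.25, limma adjusted p = 0.011), or 1.39-fold lower. With 1 array left out the difference stayed between -0.52 and -0.43 and the highest adjusted p was 0.041.

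The dimmer Jun probe set, 1448694_at, did not pass. It read 110.1, 131.8 and 130.8 on the control arrays and 100.6, 117.9 and 116.8 on the IGF-1 arrays. The groups overlapped, and the difference was -0.13 ± 0.12 (95% interval -0.41 to 0.14, adjusted p = 0.51). Both probe sets are annotated with the same RefSeq transcript of Jun, and which stretch of it each one reads was not examined. Averaged over both probe sets the difference was -0.30 and lost its call (adjusted p = 0.057, in a fit where 8.5% of genes passed downward). The log2 ratio of the brighter to the dimmer Jun probe set within an array went from 1.79 ± 0.08 to 1.45 ± 0.07 (SD, n = 3). It differed by -0.34 ± 0.06, with the groups apart (two-sided exact permutation p = 0.1, the smallest that 3 against 3 arrays allow). This ratio sets the probe set that passed against the one that did not, so it is a description and supports nothing further.

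Junb, a JUN relative that in many settings opposes JUN, had a positive difference that did not pass. Its signals were 74.28, 116.8 and 155.7 on the control arrays and 169.5, 146.6 and 165.9 on the IGF-1 arrays. Control arrays spread 2.1-fold from the lowest to the highest, IGF-1 arrays 1.16-fold, and control 3 lay within the IGF-1 range. The mean was 116 ± 40.7 in control and 161 ± 12.3 with IGF-1 (SD, n = 3), a log2 difference of 0.47 ± 0.20 (95% interval 0.03 to 0.92, unadjusted p = 0.039, limma adjusted p = 0.14). Without control 3 it was 0.69 ± 0.17 and passed (limma adjusted p = 0.038, in a fit where 4.69% of probe sets rose), and without control 1 it was 0.22. Over all 16 alternatives the adjusted p ranged from 0.011 to 0.36.

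Jund, the JUN family member that most resting cells express steadily, read 895.4, 1031 and 1132 on the control arrays and 1147, 1224 and 1155 on the IGF-1 arrays. Every IGF-1 array lay above every control array, as in 16.1% of all probe sets tested, but the gap between control 3 and IGF-1 1 was narrow. In either direction, groups did not overlap in 2 of the 8 tested member probe sets, against 34.8% of all tested. The log2 difference was 0.21 ± 0.10 (95% interval -0.02 to 0.43, adjusted p = 0.20), and without control 1 it was 0.12.

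Since the 3 JUN genes did not point the same way, their signals were also set against each other within each array, which no scaling of the arrays can alter. These ratios were taken without the pseudocount that the differences use, and were chosen after their values were seen. The log2 ratio of Jun (1417409_at) to Jund was -1.16, -1.26 and -1.32 on the control arrays and -2.01, -1.91 and -1.94 on the IGF-1 arrays. It differed by -0.70 ± 0.06, with the groups apart. The log2 ratio of Jun to Junb differed by -1.03 ± 0.29 and that of Jun to Fos by -0.30 ± 0.10, also with the groups apart. For Jun to Fos the gap was narrow, between 0.38 on control 2 and 0.34 on IGF-1 2. Each of these 3 ratios gave a two-sided exact permutation p of 0.1, the smallest that this design allows, so none can pass 0.05 by that test. Junb and Jund were picked for differences opposite in sign to that of Jun, and neither had passed. Fos differed in the same direction as Jun. Since all were picked with their values known, the ratios are a description and support nothing further.

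**Figure D2:**
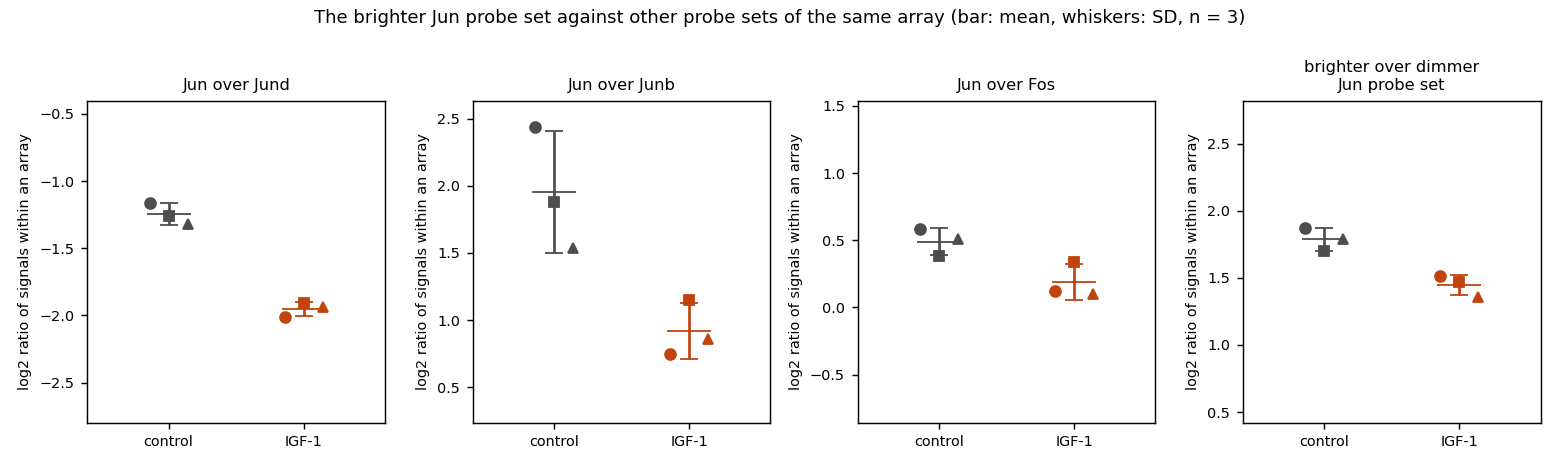
Log2 ratio of the Jun 1417409_at signal to the signal of Jund, Junb, Fos and the other Jun probe set on the same array, with the mean and SD of 3 arrays per group. All 4 panels span the same range of log2 units, and in each the IGF-1 arrays lie below the control arrays, by 0.70 for Jund, 1.03 for Junb, 0.30 for Fos and 0.34 for the other Jun probe set.

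Fos, the main partner of the JUN proteins, read 269.8, 329.9 and 316.5 on the control arrays and 262.6, 256.9 and 280.4 on the IGF-1 arrays. Only control 1 lay inside the IGF-1 range. The log2 difference of -0.18 ± 0.11 did not pass (95% interval -0.42 to 0.05, adjusted p = 0.29). Fosb, a FOS relative induced by the same signals, lay below the signal filter, at 36.7 ± 7.25 in control and 41.0 ± 8.04 with IGF-1 (SD, n = 3). Its arrays overlapped, and in the fit without a filter, where 4.18% of probe sets passed, its difference was 0.11 ± 0.19 (adjusted p = 0.82).

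Atf3, a stress-induced factor of the ATF family that can pair with JUN and in human cells represses its own gene, was dim. It read 46.61, 69.67 and 97.04 on the control arrays and 41.39, 77.42 and 54.43 on the IGF-1 arrays. The arrays of both groups spread widely and overlapped, and the difference of -0.23 ± 0.24 had a 95% interval from -0.76 to 0.30 (adjusted p = 0.56).

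Egr1, the best known EGR factor and a standard readout of ERK signalling, lay below the signal filter on the array, at 43.0 ± 4.58 in control and 38.4 ± 5.54 with IGF-1 (SD, n = 3). Its lowest and highest signals over the 6 arrays were 33.55 and 48.1, the groups overlapped, and the difference without a filter was -0.12 ± 0.16 (adjusted p = 0.77). Egr2, a relative with roles in lymphocytes and myelin, was lower still. Its probe set 1427683_at read 15.7 ± 4.19 and 15.7 ± 2.57, and 1427682_a_at read 3.92 ± 1.66 and 2.66 ± 3.54. At this signal the fold between groups is not interpretable: the second Egr2 probe set spread 11.96-fold among the IGF-1 arrays alone.

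Ier2, a small nuclear protein induced early by growth factors, read 298.6, 301.4 and 371.8 on the control arrays and 277.1, 270.4 and 345.5 on the IGF-1 arrays. The groups overlapped, with array 3 the highest in both, and the difference was -0.12 ± 0.13 (95% interval -0.40 to 0.16, adjusted p = 0.58). Ier3, also called IEX-1, an early gene with reported roles in cell survival, read 345.9, 540.5 and 785.7 on the control arrays and 545.5, 647.3 and 625.9 on the IGF-1 arrays. All IGF-1 arrays lay between the second and the highest control array. Its difference was 0.19 ± 0.23 (95% interval -0.31 to 0.69, adjusted p = 0.62) and it turned to -0.11 without control 1.

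**Figure D3:**
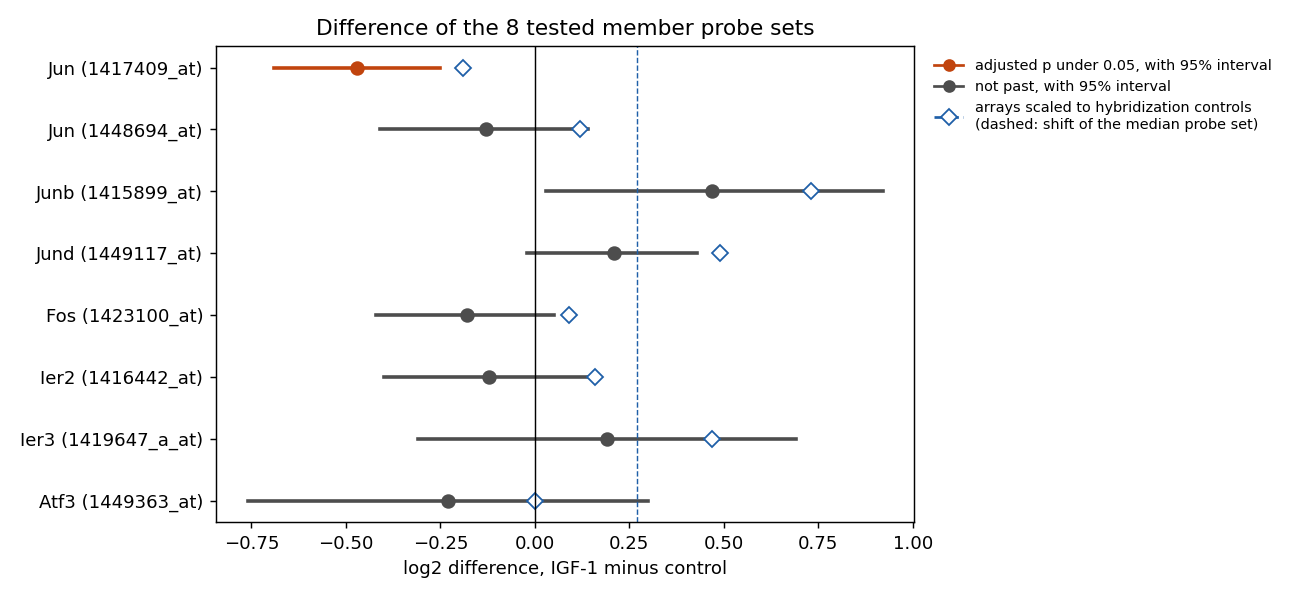
Log2 difference, IGF-1 minus control, of the 8 tested probe sets (circles) with 95% intervals from limma. Diamonds give the same difference after scaling the arrays to the hybridization controls, and the dashed line marks the shift of 0.27 that this scaling gives the median probe set. Jun 1417409_at at -0.47 is the 1 past the threshold.

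The array scaling sets the zero of every difference. When the arrays were scaled instead to 18 probe sets for RNA spiked in at hybridization, all differences moved up by a median of 0.27, and 24.2% of all probe sets passed upward against 2.17% downward. Under that scaling Jun 1417409_at was at -0.19 ± 0.15 and lost its call (adjusted p = 0.33, against 0.0085 to 0.057 under the other 16 alternatives), while Junb at 0.73 and Jund at 0.49 passed upward. Fos (0.09), Ier2 (0.16) and the dimmer Jun probe set (0.12) changed sign. Measured against the shift of 0.27, Jun lay below the median probe set and Junb and Jund above it. This order is set by construction, since the scaling moves all probe sets of an array together.

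The spread between arrays of one group differed among the members. In the control group the SD on the log2 scale was 0.57 for Ier3, 0.47 for Junb and 0.43 for Atf3, higher than that of 99.2%, 98.2% and 97.3% of all probe sets tested, whose median was 0.14. In the IGF-1 group it was 0.13 for Ier3 and 0.10 for Junb, near the median of 0.13, and 0.35 for Atf3. For Jun 1417409_at it was 0.08 in control and 0.09 with IGF-1. Control 1 was the lowest control array in 8 of the 8 tested member probe sets, against 31.6% of all probe sets tested, and in 6 of them control 3 was also the highest (16.3% of all). The members share arrays, so these are not separate observations.

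**Figure D4:**
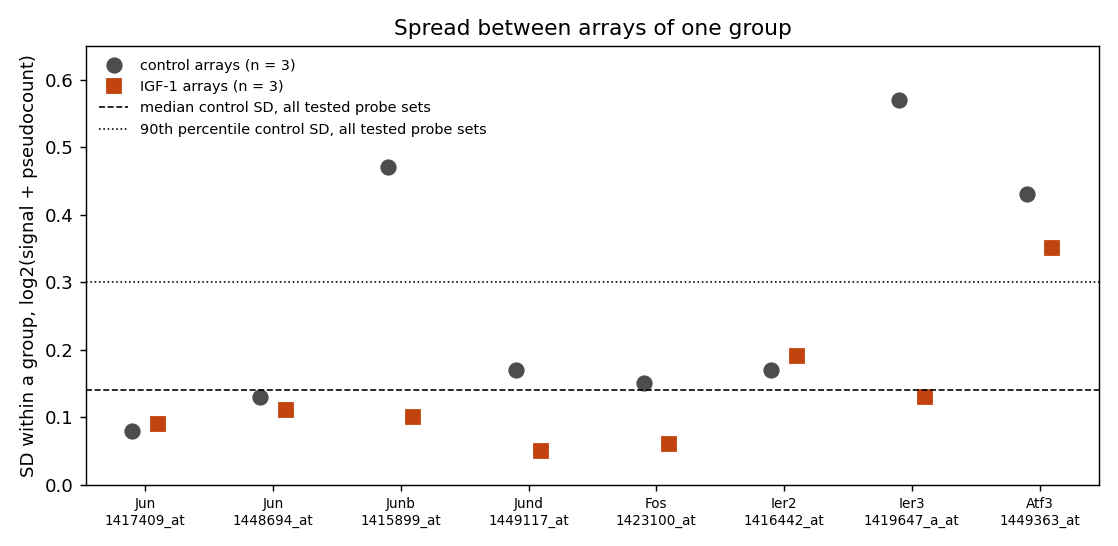
SD of log2(signal + 15.57) among the 3 control arrays (circles) and the 3 IGF-1 arrays (squares) for the 8 tested member probe sets. The dashed line at 0.14 is the median and the dotted line at 0.30 the 90th percentile of the control SD over all probe sets tested. Junb, Ier3 and Atf3 lie above the dotted line in control, and only Atf3 does so with IGF-1.

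Plasma cell markers gave strong signal, as labelled, among them Ighm (5460 ± 788 in control) and Xbp1 (4950 ± 385), with 12 of 14 markers above the filter. Summed over the list, they read 22758 to 23527 on control and 22306 to 22526 on IGF-1 arrays. Neutrophil and macrophage markers were also present, led by S100a9 and Ngp, and by Lyz2 and Lyz1, with 11 of 11 and 10 of 12 above the filter. Neutrophil sums were 26349, 31571 and 31784 on control arrays 1, 2 and 3, and 24153, 24548 and 27090 on IGF-1 arrays 1, 2 and 3. Macrophage and monocyte sums were 11532, 13734 and 14213, and 10013, 10175 and 12286. Control 1 was thus the lowest control array for these sums as for the 8 member probe sets. Of the tested markers, 3 of 11 neutrophil, 4 of 10 macrophage and 2 of 12 plasma cell genes fell, against 8.05% of all genes tested. The macrophage genes were Csf1r (-1.02), Cd14 (-0.82), Itgam (-0.54) and Lyz1 (-0.43). The neutrophil genes were Mmp8 (-0.72), Ltf (-0.6) and Mmp9 (-0.58). The plasma cell genes were Tnfrsf17 (-0.51, adjusted p = 0.008) and Slamf7 (-0.62, adjusted p = 0.013). The macrophage marker Cd68 (0.41) and the erythroid marker Slc4a1 (0.54, adjusted p = 0.017) rose. Of the defining macrophage markers, Csf1r (671 ± 185 in control), Cd14 (294 ± 77.0), Adgre1 (153 ± 26.2) and C1qb (106 ± 43.6) were above the filter, while C1qa (9.41 ± 1.15) and Mrc1 (53.2 ± 11.7) were below it. Apart from the 2 brightest of a list, these markers were named after their values were seen. Signals of T and NK cell, B cell, erythroid and stromal lists summed to at most 552 on any array. The part of other cell types in the member values was not tested, and in these bulk samples fewer cells of a type and less RNA per cell cannot be told apart. The 3′ to 5′ signal ratio, a measure of RNA integrity, was 0.748 to 0.843 for Gapdh and 1.16 to 1.31 for actin, with control 1 the highest array for both. Array correlations were 0.978 to 0.984 within and 0.956 to 0.965 between groups.

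The wider lists around these factors were described by counts, each gene by its brightest tested probe set. Over all 6895 genes tested, 7.05% rose, 8.05% fell and the median difference was -0.01. Of 26 tested genes in the list of other immediate early genes, 2 rose, 9 fell and 15 did not pass, with a median of -0.29 (-0.03 when scaled to the hybridization controls). Myc, a growth-driving factor, fell from 753 ± 92.5 to 308 ± 23.3 (-1.24 ± 0.11, adjusted p = 0.00014). Cited2, a transcriptional co-regulator, fell by 0.46 and Zfp36, which encodes the mRNA-destabilizing protein tristetraprolin, by 0.61, from 654 ± 114 to 420 ± 26.2. Rgs2, a brake on G protein signalling, fell by 0.61. Of those that rose, Tob1, an antiproliferative factor, did so by 0.62 and Gadd45b, a stress sensor, by 0.81, from 289 ± 91.5 to 509 ± 80.0. Gadd45b passed in 1 of its 3 tested probe sets. Phlda1, the brightest that did not pass, was at 0.25 (adjusted p = 0.092). The falls of Myc, Cited2 and Zfp36 and the rise of Tob1 kept their calls with each array left out in turn, and the number of falls was then 4 to 8. It was 5 when control 2 was left out, and 4 when control 3 or the IGF-1 arrays 1 or 2 were. The number of rises was 1 when control 1 or 2 or the IGF-1 arrays 2 or 3 were left out. Under scaling to the hybridization controls 5 rose and 2 fell, where 24.2% of all probe sets tested passed upward and 2.17% downward.

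**Figure D5:**
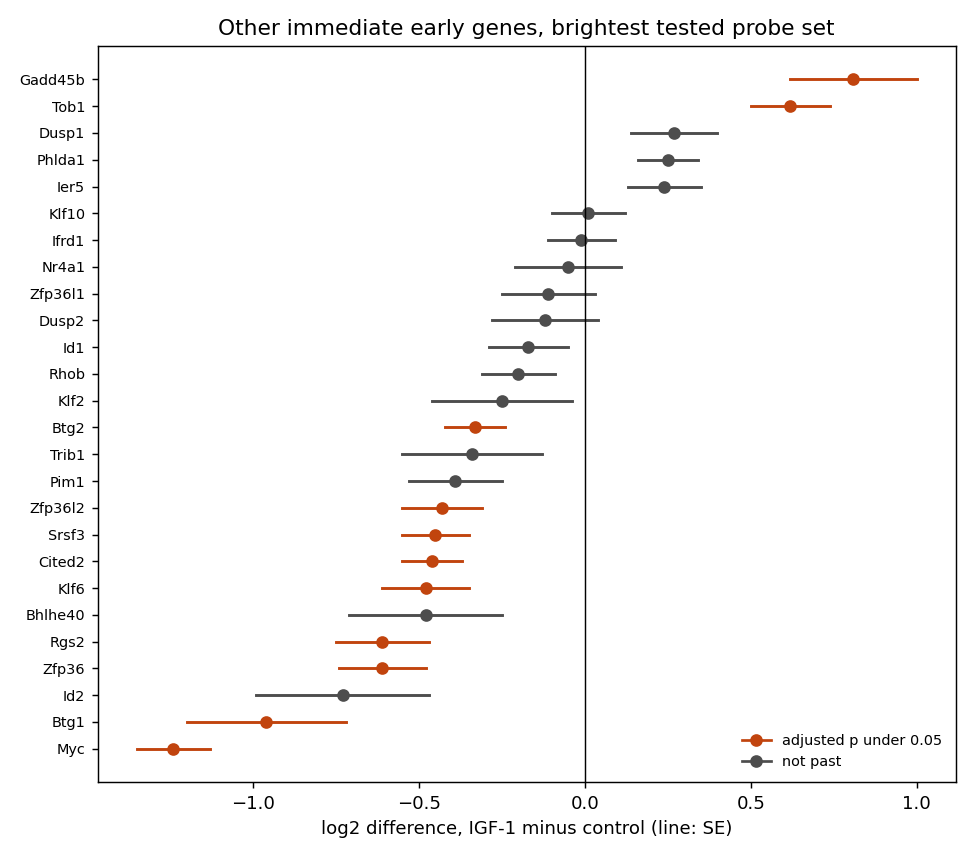
Log2 difference, IGF-1 minus control, with its SE, of the 26 tested genes in the list of other immediate early genes, ordered by size. Orange marks the 11 genes past the threshold, 9 to the left of 0 and 2 to the right, with Myc lowest at -1.24 and Gadd45b highest at 0.81.

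Among 16 tested partners of AP-1 and related leucine zipper factors, 4 rose, 0 fell (also 0 by limma's unadjusted p under 0.05) and 12 did not pass (median 0.02). Nfil3, a leucine zipper repressor, rose from 203 ± 21.5 to 322 ± 12.3 (0.63 ± 0.11, adjusted p = 0.0045), Cebpb, a factor of the acute phase and myeloid cells, by 0.62 ± 0.09, and Atf5 by 0.49 ± 0.09. Cebpb passed in 1 of its 2 tested probe sets. Ddit3, the stress factor CHOP, rose by 0.55, a call lost without IGF-1 2 (adjusted p = 0.06). Atf4, the brightest of the list, did not pass (0.09 ± 0.10, adjusted p = 0.56), nor did Fosl2 and Jdp2, the closest relatives of FOS and ATF3 tested (0.22 ± 0.13 and 0.02 ± 0.10). In the same list under scaling to the hybridization controls, 7 of the 16 rose, where 24.2% of all probe sets tested passed upward.

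Of 24 tested genes in 3 lists of regulators upstream of the members, 4 fell and 0 rose (16.7% called). Of all genes tested 15.1% were called, 8.05% falling and 7.05% rising. Under scaling to the hybridization controls the direction turned. In the SRF list 1 gene then rose, in the RAF, MEK, ERK and RSK list 3 and in the JNK and p38 list 2, with 0 falls in each. Of all probe sets tested, 24.2% passed upward under that scaling and 2.17% downward. With no filter on signal, the falls in these lists numbered 0, 1 and 0. Of 4 tested genes for SRF, its cofactor and ternary complex factors, 1 fell. This was Elk4, an SRF partner (-0.44 ± 0.11, adjusted p = 0.027), and its call was lost without any 1 array but control 3 (highest adjusted p 0.093). Elk4 passed in 1 of its 2 tested probe sets. Srf itself, at 127 ± 5.15 and 166 ± 11.0, had a difference of 0.35 ± 0.11 that did not pass (limma adjusted p = 0.056). It passed upward with quantile normalization (0.39, adjusted p = 0.039) and under scaling to the hybridization controls (0.61, adjusted p = 0.0074). Averaged over its 2 tested probe sets Srf was at 0.23 and did not pass (limma adjusted p = 0.23). With each array left out in turn it did not pass either (limma adjusted p 0.081 to 0.16). Of 10 tested RAF, MEK, ERK and RSK cascade genes, 1 fell, the RAS activator Sos2 (-0.54 ± 0.12, adjusted p = 0.017), a call that ended when the IGF-1 arrays 2 or 3 were left out (adjusted p up to 0.066). Map2k1, which encodes MEK1, was at -0.05 ± 0.12. Of 10 tested JNK and p38 cascade genes, 2 fell, Map3k5 (-0.45) and Mapk14 (-0.33), and both calls were lost with any 1 array left out. Mapk14 passed in 1 of its 2 tested probe sets. Map3k7, which encodes the kinase TAK1 and was the brightest that did not pass, was at -0.34 ± 0.11 (adjusted p = 0.065). Mapk8, which encodes the JUN kinase JNK1, was at -0.18 ± 0.11 (adjusted p = 0.30). Of 3 tested genes of the EGR and NAB list, 0 passed in limma, and 1 had an unadjusted p under 0.05, the EGR corepressor Nab2 (0.60 ± 0.22, adjusted p = 0.094, past the threshold with the replicate number as a block, under scaling to the hybridization controls or without control 3). Nab1, the brightest of that list, was at -0.01 ± 0.09 (adjusted p = 0.94). Mapk8, Fosl2, Jdp2 and Nab2 were named after their values were seen.

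Of 16 tested genes known as AP-1 or EGR targets in other cells, 3 rose, 3 fell and 10 did not pass (median 0.04). Tgfb1, which encodes a growth-inhibiting cytokine, rose from 138 ± 20.9 to 277 ± 29.7 (0.94 ± 0.13, adjusted p = 0.0017), the adhesion gene Icam1 rose by 0.94 and Vim, an intermediate filament gene, by 0.36. Fn1, which encodes the matrix protein fibronectin, fell from 427 ± 44.2 to 243 ± 52.6 (-0.79 ± 0.14, adjusted p = 0.0063). Mmp9, a matrix protease that is also in the neutrophil marker list, fell by 0.58, and S100a4 by 0.87. Mmp9 passed in 1 of its 2 tested probe sets. The brightest, the metallothionein Mt2, was at 0.01 ± 0.10. The calls of Tgfb1 and Fn1 held with each array left out, and those of the other 4 were each lost without any of at least 3 of the arrays, IGF-1 2 among them. Without IGF-1 2, 1 of these genes rose and 1 fell.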

How the data were processed

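The deposited values are linear intensity signals of each probe set on each array. The submitters' processing notes name MAS5 and GCOS, and their versions and scaling target are unstated. Each array had a trimmed mean (lowest and highest 2% left out) of 150.1, so the arrays had been scaled. Probe sets were named from the platform annotation, 20380 with 1 symbol, 691 with several (none named) and 1555 unlisted. The 64 control probe sets were left out. Probe sets with a mean signal above 53.61, the median, were tested as log2(signal + 15.57), the 25th percentile of all signals, with limma 3.58.1 under R 4.3.3 (two-sided, eBayes with trend, 2 groups, Benjamini-Hochberg over 11313 probe sets, threshold 0.05). The fit was tested on simulated data. Each member was reported with all its probe sets. From each wider list the text names the 4 genes with the smallest p in each direction among those past the threshold and the brightest gene not past it, and 2 markers per named cell type. Other named genes are marked. Members and lists were chosen with earlier results of these data known. Alternatives covered pseudocount, filter, normalization, eBayes settings, array weights, replicate block, probe set averaging and each array left out. No scan date or batch was named. The number of arrays limits the precision. Plots used matplotlib 3.10.9 in Python 3.11.15.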

Additional observations from a re-analysis of the deposited data

How the results depend on the processing

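Across all alternatives run, the brighter Jun probe set kept its direction (-0.52 to -0.19), and lost its call in 2 of 17, with scaling to the hybridization controls (-0.19) and with the mean of the probe sets per gene (-0.30). That scaling moved the median probe set by 0.27, and that mean takes in the dimmer Jun probe set, at -0.13 as reported. Why the 2 Jun probe sets differ was not tested. Scaling to the hybridization controls reversed Fos (0.09), Ier2 (0.16) and the dimmer Jun probe set (0.12), and gave 2 member probe sets higher and 0 lower. It gave 2740 probe sets higher and 246 lower (772 and 937 as reported), and 26 genes of the wider lists higher and 4 lower (9 and 16 as reported). With no filter on signal there were 448 higher and 498 lower, and 6 genes of the wider lists lower. With 1 array left out, member probe sets higher numbered 0 to 1 and lower 1 in each case, all probe sets higher 406 to 659 and lower 491 to 792, and genes of the wider lists higher 5 to 9 and lower 5 to 11. Ier3 lay between -0.11 (without control 1) and 0.47 (without control 3), Junb between 0.22 and 0.69. Whether the replicate numbers pair the arrays is not settled. Deviations of same-numbered arrays correlated at 0.12, -0.03 and 0.13, and those of differently numbered arrays at -0.15 to 0.03. Numbers 1 and 3 thus gave the highest correlations, while control 2 did not correlate best with its own number. Blocked on the replicate number, Jun was at -0.47 (limma adjusted p = 0.016), 754 probe sets were higher and 978 lower, and no member call changed. Probe sets near the lower end of the signal (Egr1, Egr2, Fosb) limit what can be seen of those genes.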
